A study of Mus musculus with 11 samples.

Results

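The genes described here are 39 genes of glycolysis and of the response to low oxygen, chosen by symbol from the 22068 gene symbols of the deposited tables. All 39 were found, with pyruvate kinase under its older symbol Pkm2. All 39 were also among the 10557 genes tested, those with a mean over the libraries of at least 1 RPKM (read counts divided by transcript length and by library size). The 11 libraries hold RNA of uncultured myeloid cells carrying CD11b, pulled out of subcutaneous tumours with magnetic beads 4 days after a local dose of 15 Gy, in mice of C57BL/6 background. The hosts were wild type (WT, 3 libraries), TLR9-/- (TLR9KO, 4 libraries) or STAT3-/- by MxCre/Stat3flox (STAT3KO, 4 libraries). All groups were irradiated, so no comparison here shows an effect of irradiation. MxCre is an interferon-inducible Cre transgene active in blood-forming cells and in other tissues, so the deletion is not restricted to myeloid cells. The sources used here do not give the tumour line, the age of the mice or the animals behind each library.

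Glycolysis turns glucose into pyruvate in the cytosol, and lactate dehydrogenase and the monocarboxylate transporters dispose of pyruvate as lactate. When oxygen is scarce, prolyl hydroxylases of the Egln family no longer mark the HIF-1 alpha protein for destruction, and HIF-1 then raises most glycolytic enzymes together with genes of pH control, mitophagy, collagen hydroxylation and protein folding. HIF-1 alpha is controlled mainly at the level of the protein, and in macrophages its transcript also responds to inflammatory signals.

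Promoter windows from RefSeq (GRCm38.p6), running from 250 bases before to 50 bases after an annotated start, were found for 36 of the 39 genes, 49 windows in all. The core of the HIF binding element, searched as ACGTG or GCGTG on both strands, was in 41 of the 49 windows (83.7%), against 62.8% of the 10719 windows of tested genes and 43.8% of all 32851 windows. The STAT-type palindrome TTCNNNGAA was in 2 of the 49 windows (4.08%), against 6.7% of the windows of tested genes and 8.3% of all windows. The windows below belong to Hif1a and to the 4 genes with a single window that were called as lower in both knockouts, in order of their p in STAT3KO, and are shown so that windows with and without the core can be compared. Capitals mark the HIF-type core on either strand, and the palindrome CACGTG holds it on both strands at once.
Hif1a: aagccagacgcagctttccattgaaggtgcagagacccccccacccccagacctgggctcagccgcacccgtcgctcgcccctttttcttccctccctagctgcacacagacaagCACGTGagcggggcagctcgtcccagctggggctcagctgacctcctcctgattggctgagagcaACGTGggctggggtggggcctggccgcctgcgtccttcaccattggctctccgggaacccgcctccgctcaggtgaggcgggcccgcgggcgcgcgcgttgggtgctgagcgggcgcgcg
Pfkp: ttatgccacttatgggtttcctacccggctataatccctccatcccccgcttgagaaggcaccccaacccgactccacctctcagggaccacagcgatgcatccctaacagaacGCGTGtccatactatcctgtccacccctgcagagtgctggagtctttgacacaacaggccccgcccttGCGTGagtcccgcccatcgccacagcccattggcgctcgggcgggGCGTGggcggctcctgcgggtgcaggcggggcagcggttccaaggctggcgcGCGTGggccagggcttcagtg
Slc16a3: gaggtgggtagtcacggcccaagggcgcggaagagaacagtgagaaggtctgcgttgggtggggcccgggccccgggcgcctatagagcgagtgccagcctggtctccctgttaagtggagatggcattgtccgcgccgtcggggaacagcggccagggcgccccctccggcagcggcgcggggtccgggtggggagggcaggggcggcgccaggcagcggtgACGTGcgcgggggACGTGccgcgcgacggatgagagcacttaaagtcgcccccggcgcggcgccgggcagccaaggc
Gpi1: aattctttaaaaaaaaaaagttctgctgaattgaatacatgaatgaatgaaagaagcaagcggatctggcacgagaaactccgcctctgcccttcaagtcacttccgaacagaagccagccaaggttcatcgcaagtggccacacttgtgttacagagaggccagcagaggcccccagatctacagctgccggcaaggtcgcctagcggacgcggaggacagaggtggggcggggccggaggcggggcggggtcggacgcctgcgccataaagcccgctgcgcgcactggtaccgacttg
Tpi1: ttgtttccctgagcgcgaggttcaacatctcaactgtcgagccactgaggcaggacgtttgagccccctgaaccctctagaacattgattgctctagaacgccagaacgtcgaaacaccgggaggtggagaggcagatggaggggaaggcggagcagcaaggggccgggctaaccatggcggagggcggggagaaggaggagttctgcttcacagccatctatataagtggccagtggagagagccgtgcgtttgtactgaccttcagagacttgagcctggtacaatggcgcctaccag
The Hif1a window is chr12:73907617-73907916 on the plus strand, the Pfkp window chr13:6648722-6649021 on the minus strand and the Slc16a3 window chr11:120948817-120949116 on the plus strand. The Gpi1 window is chr7:34230287-34230586 and the Tpi1 window chr6:124814109-124814408, both on the minus strand. Hif1a carried 3 matches, starting at -135 and -134 (the palindrome) and at -70 from the annotated start. Pfkp carried 4 matches, at -136, -68, -23 and 30, and Slc16a3 carried 2, at -27 and -14. The Gpi1 and Tpi1 windows carried 0 matches. None of the 5 windows held TTCNNNGAA. A match describes letters only, and is neither a site nor a cause.

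Each targeted gene was lowest in its own knockout. Stat3 was 15.7 to 19.7 RPKM in STAT3KO, 70.7 to 76.1 RPKM in WT and 58.5 to 68.8 RPKM in TLR9KO. Tlr9, the endosomal receptor for CpG DNA, was 3.53 to 7.7 RPKM in TLR9KO, 20.5 to 41.6 RPKM in WT and 19.2 to 61.05 RPKM in STAT3KO. Itgam, which encodes CD11b, was 177 to 328 RPKM over all libraries. The summed level of 11 macrophage markers was 4580 to 5680 RPKM in WT, 5040 to 8090 RPKM in TLR9KO, and in STAT3KO 8110 to 11800 RPKM, while the 5 epithelial markers stayed under 1 RPKM each. The estimated depth made 1 RPKM in a transcript of 2 kb worth 60 to 106 reads, and the lowest value of any of the 39 genes, Eno2 in TLR9KO replicate 3, stood for about 82 reads. The labels do not tie replicates to separate animals, so each p-value reflects only the spread among these samples, and that spread may be technical.

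In STAT3KO, 13 of the 39 genes fell against WT: Hif1a, Egln1, Hk1, Hk2, Gpi1, Pfkp, Aldoc, Tpi1, Gapdh, Eno1, Slc16a3, Pdk3 and Ndrg1. None rose by limma with p adjusted over all genes tested, and 2 were higher at an unadjusted p under 0.05. In single alternative fits 1 gene was called as higher, Ldhb without WT replicate 1 (adjusted p = 0.0363), Eno3 without WT replicate 3 (0.0294), and Ankrd37 with only the groups compared in the fit (0.0273). Of all genes tested, 14.8% were called as lower, 29.2% as higher and 44.0% in either direction, against 33.3% of the 39 as lower. Without WT replicate 3 the share called as lower was 15.4% of the 39, beside 12.3% of all genes tested. Without WT replicate 1 it was 17.9%, beside 11.1%. The 39 genes had a median log2 difference of -0.29, with 29 of them below 0, where all genes tested had a median of 0.09 and 40.9% below 0. The groups did not overlap, with STAT3KO lower, for 9 of the 39 genes, beside 16.9% of all genes tested. In such bulk samples fewer cells of a type and less RNA per cell cannot be told apart. The calls of Hif1a, Pfkp, Pdk3, Aldoc, Slc16a3 and Hk1 held in all 19 alternative fits.

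In TLR9KO, 7 of the 39 genes fell against WT, namely Hk1, Gpi1, Pfkp, Tpi1, Eno1, Pkm2 and Slc16a3, and Pfkfb3 rose. Of all genes tested, 10.6% were called as lower, 20% as higher and 30.6% in either direction, against 17.9% of the 39 as lower. The median log2 difference was -0.21 over the 39 genes and 0.04 over all genes tested. The groups did not overlap, with TLR9KO lower, for 5 of the 39 genes, beside 13.3% of all genes tested, and with TLR9KO higher for 0, beside 22.8%. These calls rest on few libraries. Without WT replicate 1 none of the 39 genes passed by limma, beside 5.7% of all genes tested called as lower. At an unadjusted p under 0.05, 7 of the 39 were lower there. Without WT replicate 3 there were 2 calls, 1 lower (2.56%, beside 7.58% of all genes tested) and 1 higher (2.56%, beside 14.3%). Over all genes the differences of either knockout from WT followed GC content. The median log2 difference was 0.38 in the fifth of genes lowest in GC and -0.19 in the fifth highest in TLR9KO, and 0.29 and -0.04 in STAT3KO. The median GC content was 52.1% for the 39 genes and 49.8% for all genes tested. With a correction for GC content and length 2 of the 39 passed in TLR9KO, Eno1 as lower and Pfkfb3 as higher. Of all genes in that fit, 6.86% were called as lower and 8.96% as higher, against 2.56% of the 39 in each direction.

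Both comparisons share the WT libraries. Hk1, Gpi1, Pfkp, Tpi1, Eno1 and Slc16a3 were called as lower in both, 6 of the 39 genes, beside 6.71% of all genes tested. Between the knockouts, Hif1a, Pfkp, Aldoc and Pdk3 were lower in STAT3KO than in TLR9KO and none of the 39 was higher by limma, while 3 were higher at an unadjusted p under 0.05. Ldhb and Eno3 were called as higher there with only the groups compared in the fit (adjusted p = 0.0259 and 0.0473), these and Ldha and Pkm2 with array weights (0.0214 to 0.0481), Slc2a3 without TLR9KO replicate 1 (0.0478), and Ldhb in both fits that take account of melanocyte genes (0.0314 and 0.0059). Of all genes tested 9.46% were called as lower there, 13.4% as higher and 22.8% in either direction. The groups did not overlap, with STAT3KO lower, for 5 of the 39 genes, beside 10.6% of all genes tested, and with STAT3KO higher for 0, beside 16.4%. The median log2 difference was -0.02 over the 39 genes and 0.06 over all genes tested. All 4 calls held in the 20 alternative fits.

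**Figure D1:**
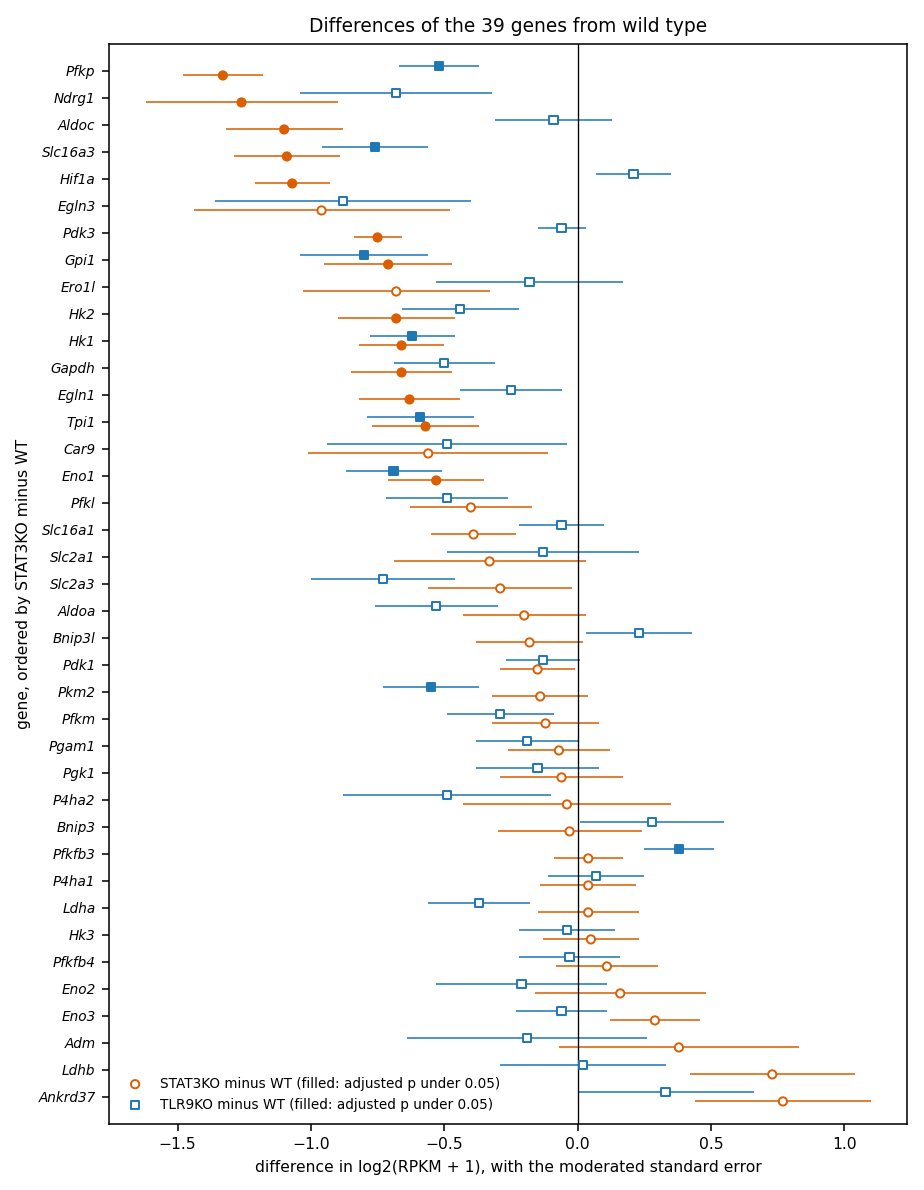
Difference of each of the 39 genes from WT in log2(RPKM + 1), on the horizontal axis, for STAT3KO (circles) and TLR9KO (squares), with the moderated standard error as a bar and filled symbols for an adjusted p under 0.05. Genes are ordered by the STAT3KO difference, from Pfkp at -1.33 to Ankrd37 at 0.77, and Hif1a, Aldoc and Pdk3 are filled in STAT3KO and open in TLR9KO.

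Among the genes that set HIF activity, Hif1a, the oxygen-regulated subunit of HIF-1, was 51.1, 55.5 and 51.1 RPKM in WT, 49.5, 66.9, 58.4 and 72.1 RPKM in TLR9KO, and 26.4, 19.6, 27.03 and 25.8 RPKM in STAT3KO. All 4 STAT3KO libraries lay below every other library, and TLR9KO overlapped WT. Hif1a averaged 52.6 ± 2.56 RPKM (SD, n = 3) in WT and 24.7 ± 3.45 RPKM (n = 4) in STAT3KO, or 46.97% of WT (log2 difference -1.07 ± 0.14, limma adjusted p = 0.000201). The TLR9KO average was 61.7 ± 9.91 RPKM, and STAT3KO stood at 40.02% of it (log2 difference -1.28 ± 0.13, limma adjusted p = 0.000145). The log2 difference between TLR9KO and WT, 0.21 ± 0.14 (limma adjusted p = 0.265), did not pass.

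The prolyl hydroxylases Egln1 and Egln3 mark HIF-1 alpha for destruction, and HIF induces both. Egln1 was 56.5, 46.2 and 63.9 RPKM in WT, 60.6, 49.2, 31.96 and 46.8 RPKM in TLR9KO, and 41.7, 36.3, 31.03 and 32.7 RPKM in STAT3KO. The STAT3KO libraries lay wholly below WT, and Egln1 fell there (log2 difference -0.63 ± 0.19, limma adjusted p = 0.0204). For Egln1, the call did not hold when any one of WT replicates 1 and 3 and STAT3KO replicates 3 and 4 was left out (adjusted p from 0.0505 to 0.0823). Egln3 was 82.05, 45.97 and 128 RPKM in WT, 106, 37.2, 19.6 and 40.7 RPKM in TLR9KO, and 54.3, 41.2, 34.3 and 32.5 RPKM in STAT3KO. The groups overlapped widely, and its log2 difference in STAT3KO, -0.96 ± 0.48 (limma adjusted p = 0.126), did not pass.

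Glucose enters cells through transporters such as Slc2a1 (GLUT1) and Slc2a3 (GLUT3). Slc2a1 ranged over 141 to 399.9 RPKM and Slc2a3 over 1.45 to 7.32 RPKM, and neither passed in any comparison. The log2 difference of Slc2a3 in TLR9KO against WT was -0.73 ± 0.27 (limma adjusted p = 0.0597).

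Hexokinases trap glucose in the cell as glucose 6-phosphate. Hk1, the broadly expressed form, was 99.8, 73.7 and 104 RPKM in WT, 65.1, 65.4, 46.1 and 63.4 RPKM in TLR9KO, and 65.4, 61.9, 49.5 and 54.5 RPKM in STAT3KO. Every library of either knockout lay below every WT library. It fell in STAT3KO (log2 difference -0.66 ± 0.16, limma adjusted p = 0.00629) and in TLR9KO (log2 difference -0.62 ± 0.16, limma adjusted p = 0.0136). The TLR9KO call did not hold when any one of WT replicates 1 and 3 was left out or with a correction for GC content and length (adjusted p from 0.0612 to 0.0929).

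Hk2, the inducible hexokinase, was 77.98, 60.1 and 81.2 RPKM in WT, 64.9, 56.7, 34.99 and 61.6 RPKM in TLR9KO, and 49, 57.3, 35.5 and 41.1 RPKM in STAT3KO. All STAT3KO libraries lay below all WT libraries, and TLR9KO overlapped both groups. It fell in STAT3KO (log2 difference -0.68 ± 0.22, limma adjusted p = 0.0274). For Hk2, the call did not hold when any one of WT replicates 1 and 3 and STAT3KO replicates 3 and 4 was left out, with no filter on low values or with a correction for GC content and length (adjusted p from 0.0509 to 0.0934). Hk3, the hexokinase of white blood cells, was 147 ± 28.3 RPKM in WT, 144 ± 29.3 RPKM in TLR9KO and 152 ± 22.6 RPKM in STAT3KO, and did not pass in any comparison. Its share of the summed RPKM of the 3 hexokinases was 47.1% ± 5.23 (SD, n = 3) in WT, 55.5% ± 9.56 (n = 4) in TLR9KO and 59.6% ± 2.72 (n = 4) in STAT3KO, and these shares were not tested.

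In the upper part of glycolysis, Gpi1, which turns glucose 6-phosphate into fructose 6-phosphate, was 882, 568 and 855 RPKM in WT, 563, 454, 313 and 438 RPKM in TLR9KO, and 543, 594, 352 and 401 RPKM in STAT3KO. TLR9KO lay wholly below WT, while STAT3KO replicate 2 was above WT replicate 2. It fell in STAT3KO (log2 difference -0.71 ± 0.24, limma adjusted p = 0.0341) and in TLR9KO (log2 difference -0.80 ± 0.24, limma adjusted p = 0.0275). The STAT3KO call did not hold when any one of WT replicates 1 and 3 and STAT3KO replicates 3 and 4 was left out or with no filter on low values (adjusted p from 0.0668 to 0.122). The TLR9KO call did not hold when any one of WT replicates 1 and 3 and TLR9KO replicates 2, 3 and 4 was left out, with no filter on low values or with a correction for GC content and length (adjusted p from 0.0503 to 0.111).

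Phosphofructokinase commits sugar to glycolysis, with subunits from Pfkl (liver type), Pfkp (platelet type) and Pfkm (muscle type). Pfkp was 185, 199 and 168 RPKM in WT, 96.6, 156, 132 and 133 RPKM in TLR9KO, and 76.5, 80.9, 65.2 and 67.4 RPKM in STAT3KO. The 3 groups did not overlap, and their order from high to low was WT, TLR9KO, STAT3KO. Pfkp averaged 184 ± 15.7 RPKM in WT, 129 ± 24.5 RPKM in TLR9KO and 72.5 ± 7.44 RPKM in STAT3KO. STAT3KO thus stood at 39.4% of WT (log2 difference -1.33 ± 0.15, limma adjusted p = 7.54e-05) and at 56.1% of TLR9KO (log2 difference -0.81 ± 0.14, limma adjusted p = 0.0027). It also fell in TLR9KO against WT (log2 difference -0.52 ± 0.15, limma adjusted p = 0.0205). That call did not hold when any one of WT replicates 1 and 2 was left out, with a correction for GC content and length or without the 2 libraries lowest in melanocyte genes (adjusted p from 0.0578 to 0.144).

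Pfkl was 131 ± 37.5 RPKM in WT, 91.7 ± 17.99 RPKM in TLR9KO and 96.5 ± 16.6 RPKM in STAT3KO, Pfkm ranged over 4.58 to 8.9 RPKM, and neither passed in any comparison. Of the summed RPKM of the 3 genes, Pfkp made up 53.4%, 68.4% and 51.2% in WT, 46.8%, 58.7%, 65.3% and 57.1% in TLR9KO and 38.6%, 41.8%, 43.8% and 41.7% in STAT3KO. The STAT3KO libraries had the 4 lowest shares of the 11, a description without a test.

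Aldolase splits fructose 1,6-bisphosphate. Aldoc, the brain-type isoenzyme, was 31.2, 20.1 and 20.1 RPKM in WT, 15.5, 28.1, 19.3 and 26.5 RPKM in TLR9KO, and 11.9, 10.5, 8.18 and 11.2 RPKM in STAT3KO. All STAT3KO values lay below all others, and TLR9KO and WT overlapped. The STAT3KO mean was 43.8% of WT (log2 difference -1.10 ± 0.22, limma adjusted p = 0.00217), and Aldoc was also lower in STAT3KO than in TLR9KO (log2 difference -1.0 ± 0.20, limma adjusted p = 0.00613).

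Aldoa, the main isoenzyme, was 1833 ± 488 RPKM in WT, 1251 ± 238 RPKM in TLR9KO and 1580 ± 324 RPKM in STAT3KO, and did not pass in any comparison. Its testis retrogenes Aldoart1 and Aldoart2 were listed at 54.03 to 114 RPKM and 69.95 to 166 RPKM, so reads may be shared between near-identical copies and the levels are uncertain. The same holds for Gapdh, Pgk1, Pgam1 and Ldha, which have processed pseudogenes.

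Tpi1, which interconverts the triose phosphates, was 1243, 829 and 1267 RPKM in WT, 849, 837, 547 and 716 RPKM in TLR9KO, and 884, 786, 609 and 700.5 RPKM in STAT3KO. WT replicate 2 lay inside the range of both knockouts. It fell in STAT3KO (log2 difference -0.57 ± 0.20, limma adjusted p = 0.0406) and in TLR9KO (log2 difference -0.59 ± 0.20, limma adjusted p = 0.0463). The STAT3KO call did not hold when any one of WT replicates 1 and 3 and STAT3KO replicates 2, 3 and 4 was left out or with no filter on low values (adjusted p from 0.0555 to 0.142). The TLR9KO call did not hold when any one of WT replicates 1 and 3 and TLR9KO replicates 2, 3 and 4 was left out, with no filter on low values, with a correction for GC content and length or with only the groups compared in the fit (adjusted p from 0.0533 to 0.164).

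Pfkfb3 and Pfkfb4 make fructose 2,6-bisphosphate, an activator of phosphofructokinase. Pfkfb3 was 30.7, 32.4 and 42.04 RPKM in WT, 53.4, 42.1, 39.7 and 48.5 RPKM in TLR9KO, and 35.5, 38.1, 36.9 and 32.8 RPKM in STAT3KO. TLR9KO overlapped WT and lay wholly above STAT3KO. It rose in TLR9KO against WT (log2 difference 0.38 ± 0.13, limma adjusted p = 0.0408), and its log2 difference between STAT3KO and TLR9KO, -0.34 ± 0.12 (limma adjusted p = 0.0578), did not pass. For Pfkfb3, the call did not hold when any one of WT replicates 1 and 2 and TLR9KO replicates 1, 2 and 4 was left out, with no filter on low values, with median-ratio scaling, with only the groups compared in the fit or without the 2 libraries lowest in melanocyte genes (adjusted p from 0.0519 to 0.166). Pfkfb4 ranged over 7.81 to 14.9 RPKM and did not pass in any comparison.

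The lower part of glycolysis carries the triose phosphates to pyruvate. Gapdh, which oxidises glyceraldehyde 3-phosphate, was 186, 123 and 193 RPKM in WT, 132, 121, 97.2 and 115 RPKM in TLR9KO, and 121, 128, 80.7 and 93.8 RPKM in STAT3KO. WT replicate 2 overlapped both knockouts. It fell in STAT3KO (log2 difference -0.66 ± 0.19, limma adjusted p = 0.0183), and its log2 difference in TLR9KO, -0.50 ± 0.19 (limma adjusted p = 0.0708), did not pass. For Gapdh, the call did not hold without WT replicate 1 (adjusted p = 0.0735) or without WT replicate 3 (0.0769).

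Eno1, the enolase of most tissues, was 1070.0, 750.2 and 1042 RPKM in WT, 679.8, 646, 447 and 591 RPKM in TLR9KO, and 765, 689, 537 and 644 RPKM in STAT3KO. TLR9KO lay wholly below WT, and STAT3KO replicate 1 was above WT replicate 2. It fell in TLR9KO (log2 difference -0.69 ± 0.18, limma adjusted p = 0.0151) and in STAT3KO (log2 difference -0.53 ± 0.18, limma adjusted p = 0.0357). The TLR9KO call did not hold without WT replicate 1 (adjusted p = 0.0707) or without WT replicate 3 (0.0621). The STAT3KO call did not hold when any one of WT replicates 1 and 3 and STAT3KO replicates 2, 3 and 4 was left out or with no filter on low values (adjusted p from 0.0505 to 0.131). Gm5506, a RefSeq synonym of the enolase copy Eno1b, was listed at 989 to 2318 RPKM, above Eno1 in every library, so reads may be shared between the copies. Gm5506 overlapped WT in both knockouts and did not pass in STAT3KO (log2 difference -0.50 ± 0.22, limma adjusted p = 0.0838). It did not pass in TLR9KO either (log2 difference -0.59 ± 0.22, limma adjusted p = 0.0606).

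Pkm2, pyruvate kinase of the muscle-type gene, was 2084, 1509 and 2269 RPKM in WT, 1545, 1382, 1095 and 1274 RPKM in TLR9KO, and 1958, 2073, 1464 and 1555 RPKM in STAT3KO. TLR9KO replicate 1 was above WT replicate 2, and STAT3KO overlapped WT widely. It fell in TLR9KO (log2 difference -0.55 ± 0.18, limma adjusted p = 0.0425), and its log2 difference in STAT3KO, -0.14 ± 0.18 (limma adjusted p = 0.559), did not pass. For Pkm2, the call did not hold when any one of WT replicates 1 and 3 and TLR9KO replicates 2, 3 and 4 was left out, with no filter on low values, with a correction for GC content and length or with only the groups compared in the fit (adjusted p from 0.0657 to 0.16). These gene-level values do not separate the M1 and M2 splice forms. Pgk1 (496 to 916 RPKM), Pgam1 (422 to 733 RPKM), the neuronal enolase Eno2 (0.74 to 4.05 RPKM) and the muscle enolase Eno3 (5.91 to 12.3 RPKM) did not pass in any comparison.

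Lactate dehydrogenase is built from A and B chains. Ldha averaged 1085 ± 212 RPKM in WT, 839.7 ± 150.5 RPKM in TLR9KO and 1115 ± 206 RPKM in STAT3KO. Ldhb was 42.95, 15.5 and 37.9 RPKM in WT, 31.7, 38.04, 22.8 and 28.9 RPKM in TLR9KO, and 63.4, 47.7, 37.3 and 52.7 RPKM in STAT3KO. Neither passed in any comparison, and the log2 difference of Ldhb in STAT3KO against WT was 0.73 ± 0.31 (limma adjusted p = 0.0767). Ldhb made up 2.78% ± 0.934 of the summed RPKM of both in WT, 3.5% ± 0.501 in TLR9KO and 4.33% ± 0.689 in STAT3KO.

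Slc16a3 (MCT4), the lactate exporter of glycolytic cells, was 306, 242 and 363 RPKM in WT, 220.3, 184, 126 and 188 RPKM in TLR9KO, and 174, 138, 126 and 125 RPKM in STAT3KO. Every library of either knockout lay below every WT library. The STAT3KO mean was 46.4% of WT (log2 difference -1.09 ± 0.20, limma adjusted p = 0.00131) and the TLR9KO mean 59.1% (log2 difference -0.76 ± 0.20, limma adjusted p = 0.014). The TLR9KO call did not hold when any one of WT replicates 1 and 3 was left out or with a correction for GC content and length (adjusted p from 0.0509 to 0.0782). Slc16a1 (MCT1) ranged over 3.24 to 6.56 RPKM and did not pass in any comparison, with a log2 difference of -0.39 ± 0.16 (limma adjusted p = 0.0698) in STAT3KO against WT.

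Pyruvate dehydrogenase kinases hold back the entry of pyruvate into the citric acid cycle. Pdk3 was 24.5, 23.6 and 24.6 RPKM in WT, 19.9, 26.3, 25.4 and 21.8 RPKM in TLR9KO, and 14.3, 14.4, 14.1 and 13.3 RPKM in STAT3KO. All STAT3KO libraries lay below all others, and the spread within groups was the smallest of the 39 genes. Pdk3 averaged 24.2 ± 0.577 RPKM in WT and 14.01 ± 0.50 RPKM in STAT3KO, or 57.9% of WT (log2 difference -0.75 ± 0.09, limma adjusted p = 0.000169), and Pdk3 was also lower in STAT3KO than in TLR9KO (log2 difference -0.69 ± 0.09, limma adjusted p = 0.000621). Pdk1, a HIF-1 target, ranged over 11.9 to 19.6 RPKM and did not pass in any comparison.

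Of the 9 genes that answer to hypoxia outside glycolysis, 1 fell in STAT3KO (11.1%, near the 14.8% of all genes tested called as lower) and none passed by limma in TLR9KO, nor at an unadjusted p under 0.05. Ndrg1, a stress-responsive gene, was 238, 198 and 312 RPKM in WT, 283, 158, 86.5 and 140 RPKM in TLR9KO, and 129, 147, 80.2 and 70.6 RPKM in STAT3KO. STAT3KO lay wholly below WT and overlapped TLR9KO. It fell in STAT3KO (log2 difference -1.26 ± 0.36, limma adjusted p = 0.0166). For Ndrg1, the call did not hold without WT replicate 3 (adjusted p = 0.0661).

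Car9, a membrane carbonic anhydrase used as a marker of hypoxia, was 48.2, 14.9 and 50.5 RPKM in WT, 36.5, 32.97, 11.4 and 21.3 RPKM in TLR9KO, and 32.2, 20.9, 16.6 and 22.2 RPKM in STAT3KO. The groups overlapped, with log2 differences from WT of -0.56 ± 0.45 (limma adjusted p = 0.351) in STAT3KO and -0.49 ± 0.45 (limma adjusted p = 0.44) in TLR9KO. Ankrd37, an ankyrin repeat gene induced by HIF-1, was 14.4, 9.14 and 13.3 RPKM in WT, 27.3, 16.7, 8.37 and 14.7 RPKM in TLR9KO, and 26.1, 28.1, 15.97 and 17.5 RPKM in STAT3KO. It was the 1 gene whose STAT3KO libraries all lay above WT, where 30.8% of all genes tested did, and its log2 difference of 0.77 ± 0.33 (limma adjusted p = 0.0764) did not pass.

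Adm, the vasodilator peptide adrenomedullin, ranged over 5.0 to 23.6 RPKM. The mitophagy receptors Bnip3 and Bnip3l ranged over 71.5 to 175 RPKM and 27.2 to 60.1 RPKM, the endoplasmic reticulum oxidase Ero1l over 60.6 to 209.8 RPKM, and the collagen prolyl hydroxylase subunits P4ha1 and P4ha2 over 35.3 to 60.2 RPKM and 4.15 to 17.99 RPKM. None of these 6 passed in any comparison by limma.

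**Figure D2:**
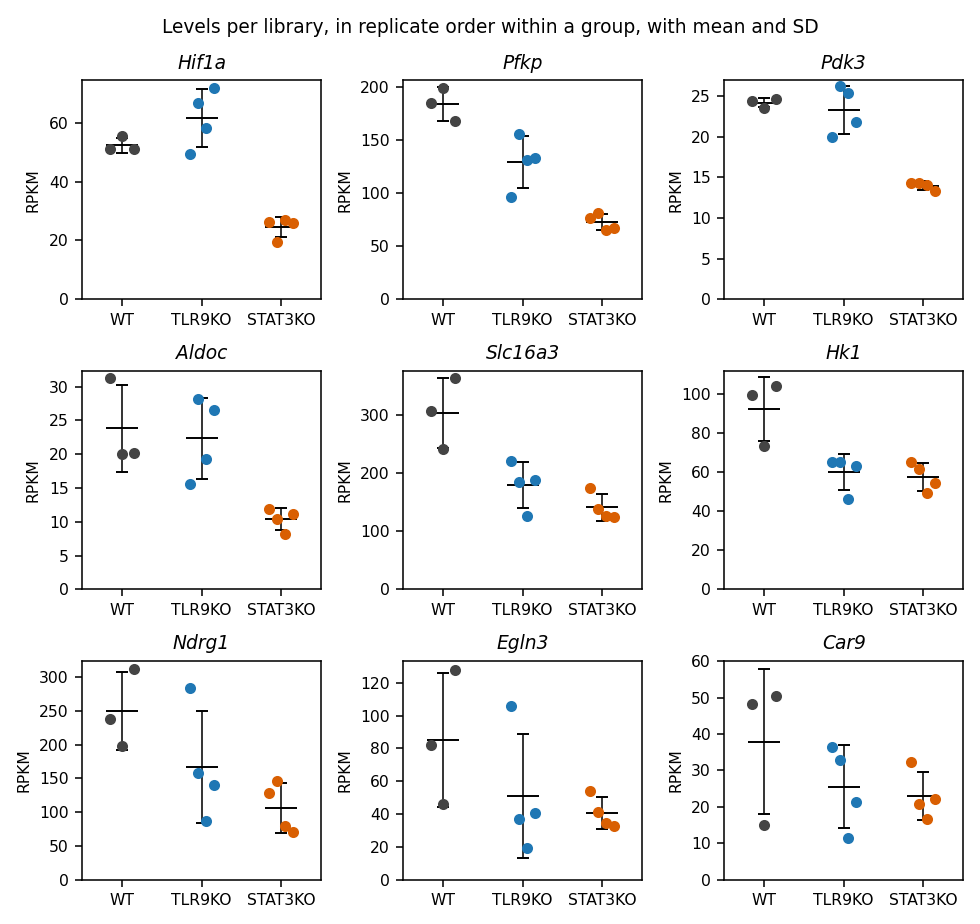
RPKM of 9 genes in each library, in replicate order within WT, TLR9KO and STAT3KO, with the group mean as a line and the SD as bars. The STAT3KO points of Hif1a, Pfkp, Pdk3 and Aldoc lie below all other points, while in Egln3 and Car9 the groups overlap.

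The 39 genes also differed between libraries of the same genotype. In WT, replicate 2 was the lowest library for 33 of the 39 genes (84.6%, against 38% of all genes tested). In TLR9KO, replicate 3 was the lowest for 32 of the 39 genes (82.1%, against 36.1% of all genes tested), and replicate 1 the highest for 29 of the 39 genes (74.4%, against 29.8% of all genes tested). In STAT3KO, replicate 3 was the lowest for 26 of the 39 genes (66.7%, against 29.3% of all genes tested). The genes thus shared an order of libraries within each genotype, which is a description and was not tested. The mean log2(RPKM + 1) over the 39 genes was 6.40, 5.92 and 6.52 in WT, 6.33, 6.11, 5.58 and 6.00 in TLR9KO, and 6.18, 6.03, 5.71 and 5.86 in STAT3KO, while over all genes tested it stayed between 3.59 and 3.71.

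For 30 of the 39 genes (76.9%, against 20.2% of all genes tested), WT replicate 2 and TLR9KO replicate 3 were both the lowest of their group. WT replicate 2 was not the lowest for Hif1a, Hk3, Pfkp, Pfkfb3, Pfkfb4 and Bnip3l, and TLR9KO replicate 3 was not for Hif1a, Hk3, Pfkp, Aldoc, Pfkfb4, Eno3 and Pdk3. The 4 genes that were lower in STAT3KO than in TLR9KO are all among the latter. These traits are not independent, because a low TLR9KO replicate 3 lowers the TLR9KO mean and widens its spread.

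The median within-group SD on the log2 scale was 0.30 over the 39 genes and 0.16 over all genes tested, and 38 of the 39 exceeded the latter. It ran from 0.12 for Pdk3 to 0.73 for Egln3. The highest TLR9KO library exceeded the lowest 5.41-fold for Egln3, 4.85-fold for Eno2, 3.46-fold for Ero1l and 3.21-fold for Car9, against 1.46-fold for Hif1a.

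**Figure D3:**
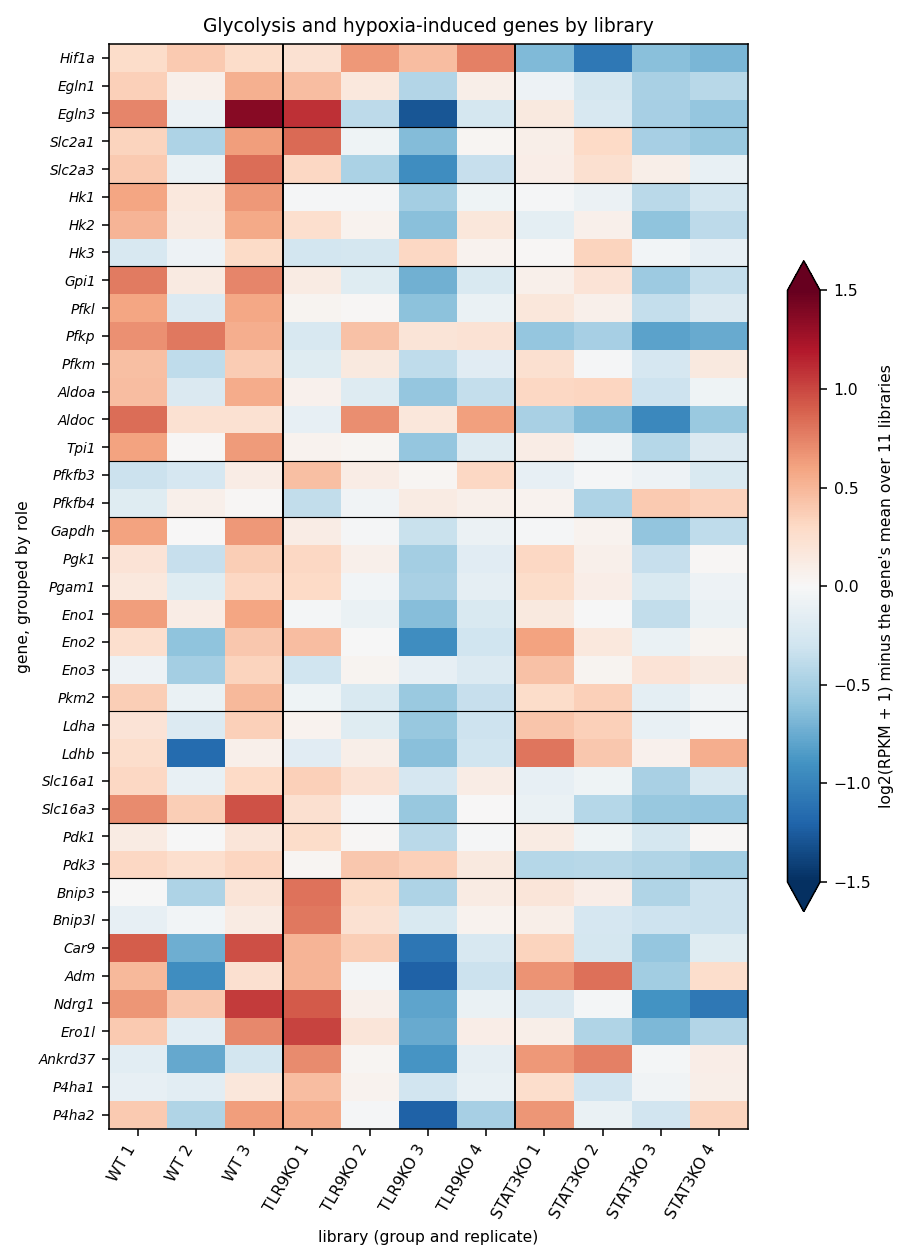
Level of the 39 genes in the 11 libraries, as log2(RPKM + 1) minus the gene's mean over all libraries, from blue (lower) to red (higher), with genes grouped by role from HIF regulation at the top to other hypoxia-induced genes at the bottom. TLR9KO replicate 3 is the lowest of its group for 32 genes, and the row of Hif1a is blue in the 4 STAT3KO libraries and red in the others.

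The 7 melanocyte markers were also lowest in those 2 libraries. They summed to 1446, 454 and 1281 RPKM in WT, 1044, 1394, 488 and 838 RPKM in TLR9KO, and 1282, 876, 834 and 1206 RPKM in STAT3KO, and none of the 7 passed in any comparison by limma, nor at an unadjusted p under 0.05. In TLR9KO the sum of the macrophage markers was highest in replicate 3, at 8094 RPKM. It was 5043, 5553 and 6474 RPKM in replicates 1, 2 and 4. Apoe, C1qa, C1qb and C1qc made up most of these sums. The macrophage markers did not move together, since Mrc1 and Cd163 were lowest in TLR9KO replicate 3, at 160 and 0.67 RPKM. In fits added after the data were seen, without the 2 libraries, 18 of the 39 genes (46.2%, beside 16.3% of all genes tested) were called as lower and none as higher in STAT3KO against WT, and 11 (28.2%, beside 11.3%) as lower in TLR9KO. WT replicate 2 was the lowest WT library for 33 of the 39 genes, so leaving it out raises their WT means. Without WT replicate 2 alone, 16 (41.0%, beside 14.2% of all genes tested) were lower in STAT3KO and 11 (28.2%, beside 13.1%) in TLR9KO. The fits without the 2 libraries thus cannot show whether the falls depend on melanocyte RNA. With the melanocyte level as a covariate, 18 were lower and 2 higher in STAT3KO, beside 17.8% lower and 31.5% higher of all genes tested, and 11 were lower and 1 higher in TLR9KO, beside 13.7% and 22%. The part of pigment cell RNA in the levels themselves was not tested.

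**Figure D4:**
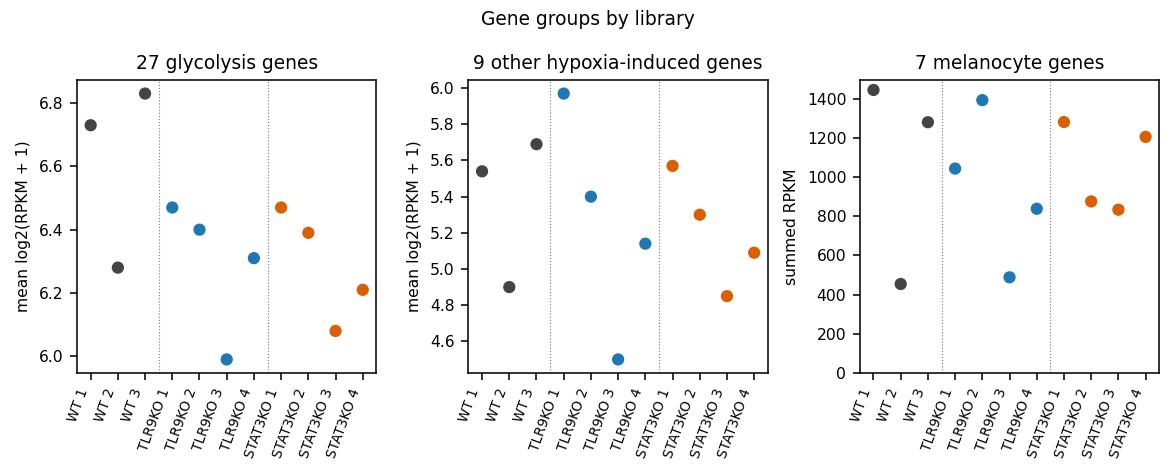
Each point is 1 library, in replicate order within WT, TLR9KO and STAT3KO; the panels give the mean log2(RPKM + 1) of 27 genes of glycolysis, its transport and pyruvate control, the mean of the 9 other hypoxia-induced genes, and the summed RPKM of 7 melanocyte genes. WT replicate 2 and TLR9KO replicate 3 are the lowest of their group in all 3 panels.

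The mean over the 27 genes of glycolysis, transport and pyruvate control was 6.73, 6.28 and 6.83 in WT, 6.47, 6.40, 5.99 and 6.31 in TLR9KO, and 6.47, 6.39, 6.08 and 6.21 in STAT3KO. The mean over the 9 other hypoxia-induced genes was 5.54, 4.90 and 5.69 in WT, 5.97, 5.40, 4.50 and 5.14 in TLR9KO, and 5.57, 5.30, 4.85 and 5.09 in STAT3KO. Both are on the log2(RPKM + 1) scale, and the highest library was WT replicate 3 in the former and TLR9KO replicate 1 in the latter.

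Other markers moved with the genotype. In STAT3KO against WT, 7 of the 11 macrophage markers rose and 1 fell. Of the 7 erythroid markers 5 fell in each knockout against WT, with sums in WT of 57 to 223 RPKM, in TLR9KO of 0.64 to 4.12 RPKM and in STAT3KO of 3.64 to 68.4 RPKM. Of the 6 fibroblast markers 3 rose in each, with sums of 1.66 to 3.65 RPKM, 8.53 to 37.2 RPKM and 12.2 to 26.5 RPKM in the same order. Of the 6 dendritic cell markers 3 were tested, and Itgax (CD11c) fell in STAT3KO (log2 difference -2.19 ± 0.29, limma adjusted p = 0.000236). The sums were 28.2 to 64.5 RPKM there and 133 to 208 RPKM in WT. Itgax made up most of these sums, with means of 37.4 RPKM in STAT3KO and 169 RPKM in WT. The means of Cd209a, Zbtb46, Flt3 and Xcr1 were higher in STAT3KO than in WT, without a call, and that of Clec9a was lower. Of the 6 markers of inflammatory monocytes, Ly6c2 (log2 difference 2.08 ± 0.50, limma adjusted p = 0.00613) and Plac8 rose in STAT3KO and Vcan fell. The sums were 833 to 2730 RPKM against 347 to 647 RPKM in WT. Ly6c2 made up much of them, with means of 931 RPKM in STAT3KO and 201 RPKM in WT, and Chi3l3 reached 1043 RPKM in STAT3KO replicate 2. Without a call, the means of Ly6c1 and Chi3l3 were higher in STAT3KO than in WT and that of Ccr2 was lower (45.5 against 51.8 RPKM). The platelet marker Pf4, 1 of 5 on that list, rose in STAT3KO (log2 difference 1.91 ± 0.48, limma adjusted p = 0.00797). The sums, mostly Pf4, were 608 to 1020 RPKM against 115 to 425 RPKM in WT. Ppbp, the only other platelet marker tested, did not pass and had a lower mean in STAT3KO (log2 difference -0.83 ± 0.96, limma adjusted p = 0.51). The remaining 3 platelet markers stayed under 1 RPKM. None of the 9 neutrophil markers passed in STAT3KO against WT by limma, while 1 was higher at an unadjusted p under 0.05, and their sum of 572 RPKM in STAT3KO replicate 2 stood apart from 49.1, 73.05 and 84.8 RPKM in the other STAT3KO libraries. Their part in the differences of the 39 genes was not tested.

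Of 13 other parts of the HIF system 11 were tested, and 3 rose and 3 fell in each knockout against WT. Hif1an, an asparagine hydroxylase that restrains HIF, fell from 8.597 ± 0.632 RPKM in WT to 5.46 ± 0.696 RPKM in STAT3KO (log2 difference -0.57 ± 0.10, limma adjusted p = 0.00124) and 5.93 ± 0.531 RPKM in TLR9KO (log2 difference -0.47 ± 0.10, limma adjusted p = 0.00631). Rbx1 and Tceb1, subunits of the ubiquitin ligase that destroys HIF-1 alpha, rose in STAT3KO (log2 differences 0.52 ± 0.08 and 0.53 ± 0.09) and in TLR9KO (0.43 ± 0.08 and 0.86 ± 0.09). With the correction for GC content and length none of these 4 rises passed, and Tceb1 stood at -0.05 in STAT3KO. Siah2, a ligase that acts on prolyl hydroxylases, fell in STAT3KO (log2 difference -0.47 ± 0.14, limma adjusted p = 0.0205). For Siah2, the call did not hold when any one of WT replicates 1 and 2 and STAT3KO replicate 4 was left out or with a correction for GC content and length (adjusted p from 0.0528 to 0.0613). Siah2 and Tceb1 were lower in STAT3KO than in TLR9KO (log2 differences -0.42 ± 0.13 and -0.33 ± 0.08), and Cul2, the scaffold of that ubiquitin ligase, rose in TLR9KO (0.61 ± 0.14). Siah2 in STAT3KO against TLR9KO missed the threshold when any one of STAT3KO replicates 1, 2 and 4 and TLR9KO replicates 2, 3 and 4 was left out, with no filter on low values, with only the groups compared in the fit or without the 2 libraries lowest in melanocyte genes (adjusted p from 0.064 to 0.106). Tceb1 in STAT3KO against TLR9KO missed the threshold when any one of STAT3KO replicate 1 and TLR9KO replicate 2 was left out or with a correction for GC content and length (adjusted p from 0.0534 to 0.138). Cul2 in TLR9KO against WT missed the threshold with a correction for GC content and length (adjusted p = 0.283).

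Of 24 further hypoxia-induced genes 21 were tested. Beside 14.8% and 10.6% of all genes tested, 6 of the 21 (28.6%) fell in STAT3KO and 4 (19.0%) in TLR9KO against WT. None rose by limma in either, while 2 were higher in STAT3KO at an unadjusted p under 0.05 and 0 in TLR9KO. Nos2, which makes nitric oxide in activated macrophages, averaged 83.2 ± 33.2 RPKM in WT and fell to 10.7 ± 1.99 RPKM in STAT3KO (log2 difference -2.80 ± 0.21, limma adjusted p = 1.58e-05). Bhlhe40, a hypoxia-induced repressor, fell from 213 ± 14.9 RPKM to 84.7 ± 14.2 RPKM (log2 difference -1.33 ± 0.19, limma adjusted p = 0.00034). Both were also lower in STAT3KO than in TLR9KO, by log2 differences of -2.53 ± 0.20 and -0.98 ± 0.18. Plod1, a collagen lysyl hydroxylase, and P4hb, a subunit of collagen prolyl hydroxylase, fell in TLR9KO (log2 differences -0.63 ± 0.15 and -0.86 ± 0.23). P4hb also fell in STAT3KO (-0.60 ± 0.23), and Plod1 was higher in STAT3KO than in TLR9KO (0.52 ± 0.14). Plod1 in TLR9KO against WT missed the threshold without WT replicate 1 (adjusted p = 0.0506). P4hb in TLR9KO against WT missed the threshold without WT replicate 1 (adjusted p = 0.0738) or with a correction for GC content and length (0.0519). P4hb in STAT3KO against WT missed the threshold when any one of STAT3KO replicates 3 and 4 and WT replicates 1, 2 and 3 was left out, with a correction for GC content and length, with no filter on low values, with only the groups compared in the fit or without the 2 libraries lowest in melanocyte genes (adjusted p from 0.0524 to 0.177). Plod1 in STAT3KO against TLR9KO missed the threshold when any one of STAT3KO replicates 1 and 2 and TLR9KO replicate 2 was left out (adjusted p from 0.0501 to 0.0589). Kdm4b, a histone demethylase, fell in STAT3KO and TLR9KO (log2 differences -0.81 ± 0.19 and -0.67 ± 0.19), and Gys1, glycogen synthase, fell in STAT3KO (-0.90 ± 0.29). Hmox1, a heme oxygenase, was higher in STAT3KO than in TLR9KO (1.65 ± 0.40). Kdm4b in TLR9KO against WT missed the threshold when any one of WT replicates 1 and 3 was left out, with a correction for GC content and length or with only the groups compared in the fit (adjusted p from 0.0516 to 0.143). Gys1 in STAT3KO against WT missed the threshold when any one of WT replicates 1 and 3 and STAT3KO replicates 3 and 4 was left out or with no filter on low values (adjusted p from 0.0521 to 0.103).

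All 7 genes of the pentose phosphate pathway, which branches from glucose 6-phosphate, were tested. In STAT3KO 1 rose and 2 fell, and in TLR9KO 1 rose and 4 fell. Pgd, phosphogluconate dehydrogenase, fell from 219 ± 20.4 RPKM in WT to 149.8 ± 5.94 RPKM in TLR9KO (log2 difference -0.54 ± 0.09, limma adjusted p = 0.00216) and to 176 ± 14.9 RPKM in STAT3KO (log2 difference -0.32 ± 0.09, limma adjusted p = 0.0198). The STAT3KO call did not hold when any one of WT replicates 1 and 3 and STAT3KO replicate 3 was left out (adjusted p from 0.0507 to 0.0904). Tkt, transketolase, fell in STAT3KO and TLR9KO (log2 differences -0.39 ± 0.12 and -0.53 ± 0.12), and G6pdx, which opens the pathway, and Pgls, which follows it, fell in TLR9KO (-0.38 ± 0.11 and -0.35 ± 0.11). Taldo1, transaldolase, rose in STAT3KO (0.36 ± 0.13), and the epimerase Rpe rose in TLR9KO (0.85 ± 0.11). Between the knockouts Pgls, Taldo1 and G6pdx were higher in STAT3KO (0.41 ± 0.11, 0.37 ± 0.12 and 0.33 ± 0.11) and Rpe was lower (-0.61 ± 0.11). Tkt in STAT3KO against WT missed the threshold when any one of WT replicate 1 and STAT3KO replicates 1 and 3 was left out (adjusted p from 0.0508 to 0.0901). G6pdx in TLR9KO against WT missed the threshold when any one of WT replicates 1, 2 and 3 and TLR9KO replicates 1, 2 and 4 was left out, with a correction for GC content and length or with only the groups compared in the fit (adjusted p from 0.0544 to 0.0917). Pgls in TLR9KO against WT missed the threshold when any one of TLR9KO replicates 1, 2 and 4 and WT replicates 1 and 3 was left out, with a correction for GC content and length, with no filter on low values or with only the groups compared in the fit (adjusted p from 0.0503 to 0.398). Taldo1 in STAT3KO against WT missed the threshold when any one of WT replicates 1, 2 and 3 and STAT3KO replicates 1, 2 and 3 was left out, with no filter on low values, with median-ratio scaling or with a correction for GC content and length (adjusted p from 0.0555 to 0.46). Pgls in STAT3KO against TLR9KO missed the threshold without TLR9KO replicate 4 (adjusted p = 0.0595) or with a correction for GC content and length (0.0568). Taldo1 in STAT3KO against TLR9KO missed the threshold when any one of STAT3KO replicates 1, 2, 3 and 4 and TLR9KO replicates 1, 2 and 4 was left out, with no filter on low values, with median-ratio scaling, with a correction for GC content and length or with only the groups compared in the fit (adjusted p from 0.0507 to 0.227). G6pdx in STAT3KO against TLR9KO missed the threshold when any one of STAT3KO replicates 1, 2 and 4 and TLR9KO replicates 1, 2 and 4 was left out, with no filter on low values, with median-ratio scaling, with a correction for GC content and length or with only the groups compared in the fit (adjusted p from 0.0622 to 0.153).

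Of 13 genes that bring pyruvate into mitochondria 12 were tested, of which 4 rose and 1 fell in STAT3KO, and 5 rose and 2 fell in TLR9KO. Between the knockouts none passed by limma, beside 22.8% of all genes tested, nor at an unadjusted p under 0.05. Brp44, a subunit of the mitochondrial pyruvate carrier now called Mpc2, rose from 9.75 ± 1.096 RPKM in WT to 19.2 ± 1.03 RPKM in STAT3KO (log2 difference 0.91 ± 0.09, limma adjusted p = 4.83e-05) and 18.6 ± 1.501 RPKM in TLR9KO (log2 difference 0.87 ± 0.09, limma adjusted p = 0.000231). Dld and Pdhx, parts of the pyruvate dehydrogenase complex, rose in STAT3KO (log2 differences 0.45 ± 0.09 and 0.30 ± 0.07) and in TLR9KO (0.59 ± 0.09 and 0.31 ± 0.07), and none of these 4 calls held with the correction for GC content and length. Cs, citrate synthase, fell in STAT3KO and TLR9KO (log2 differences -0.41 ± 0.08 and -0.32 ± 0.08), and Brp44l, the partner of Brp44 now called Mpc1, rose in TLR9KO (0.55 ± 0.13). Cs in TLR9KO against WT missed the threshold without WT replicate 1 (adjusted p = 0.0743). Brp44l in TLR9KO against WT missed the threshold without WT replicate 3 (adjusted p = 0.0502) or with a correction for GC content and length (0.224).

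Of 14 genes of glycogen and gluconeogenesis 11 were tested. Beside 14.8% and 10.6% of all genes tested, 5 of the 11 (45.5%) fell in STAT3KO and 4 (36.4%) in TLR9KO. None rose by limma in either, nor was any higher at an unadjusted p under 0.05. Gys1 and Gbe1 are also on the list of further hypoxia-induced genes, and the fall of Gys1 in STAT3KO is counted on both lists. Pygl, a glycogen phosphorylase, fell from 77.6 ± 7.38 RPKM in WT to 39.3 ± 2.27 RPKM in STAT3KO (log2 difference -0.96 ± 0.09, limma adjusted p = 2.44e-05) and was lower there than in TLR9KO (log2 difference -0.81 ± 0.08, limma adjusted p = 0.000128). Pck2, the mitochondrial phosphoenolpyruvate carboxykinase, fell in TLR9KO (log2 difference -0.76 ± 0.11, limma adjusted p = 0.000922) and was higher in STAT3KO than in TLR9KO (log2 difference 0.95 ± 0.10, limma adjusted p = 0.000191). G6pc3, a glucose 6-phosphatase, fell in STAT3KO (log2 difference -0.62 ± 0.11) and in TLR9KO (-0.45 ± 0.11). Pgm2, a phosphoglucomutase, fell in STAT3KO (-0.83 ± 0.22), and Pygb, the brain glycogen phosphorylase, in TLR9KO (-0.34 ± 0.08). G6pc3 in TLR9KO against WT missed the threshold without WT replicate 1 (adjusted p = 0.0538). Pygb in TLR9KO against WT missed the threshold with a correction for GC content and length (adjusted p = 0.224).

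Of 20 other glycolytic enzymes and carriers of hexoses or lactate 13 were tested. In STAT3KO, Slc16a7 (MCT2), a lactate carrier, rose from 2.43 ± 0.702 RPKM in WT to 5.45 ± 1.07 RPKM (log2 difference 0.91 ± 0.16, limma adjusted p = 0.00109), and Slc2a9, a urate carrier of the glucose transporter family, rose from 3.197 ± 0.206 RPKM to 5.33 ± 0.914 RPKM (log2 difference 0.58 ± 0.12, limma adjusted p = 0.00318). Emb, an accessory chain of the lactate carriers, fell (log2 difference -0.40 ± 0.12, limma adjusted p = 0.0183). The Emb call did not hold when any one of WT replicates 1 and 2 and STAT3KO replicate 4 was left out or without the 2 libraries lowest in melanocyte genes (adjusted p from 0.0515 to 0.0634). Between the knockouts Slc2a9, Slc16a7 and the muscle phosphoglycerate mutase Pgam2 were higher in STAT3KO (log2 differences 0.56 ± 0.11, 0.57 ± 0.15 and 0.39 ± 0.11) and Emb was lower (-0.57 ± 0.11). Slc16a7 in STAT3KO against TLR9KO missed the threshold when any one of STAT3KO replicates 3 and 4 and TLR9KO replicate 2 was left out (adjusted p from 0.05 to 0.0538). Pgam2 in STAT3KO against TLR9KO missed the threshold when any one of STAT3KO replicates 1 and 4 and TLR9KO replicates 2 and 3 was left out, with a correction for GC content and length or without the 2 libraries lowest in melanocyte genes (adjusted p from 0.0527 to 0.476). None of the 13 passed in TLR9KO against WT by limma, beside 30.6% of all genes tested, nor did any at an unadjusted p under 0.05.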

How the data were processed

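RNA of 11 libraries was sequenced by the submitters, and the deposited values are 1 RPKM per gene symbol and library, each in a file of its own. Per the submitters' processing notes, the tools were TopHat 1.3.1, Bowtie 0.12.7, CASAVA 1.7 and Partek, with the mouse build mm9. The sources used here give neither the annotation nor the handling of reads with several matches. The file of TLR9KO replicate 4 states no unit; it was read as RPKM like the rest.

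Values were analysed as log2(RPKM + 1), which understates the change of low genes. Genes averaging 1 RPKM or more were fitted with limma 3.58.1 (R 4.3.3; group means of all 11 libraries, moderated spread with trend, two-sided). P-values were adjusted by Benjamini-Hochberg over all 10557 genes tested, for each of 3 comparisons, and called under 0.05. The fit was tested on simulated data. Read depth was estimated from the steps of low values of microRNA genes; 72.7% to 97.0% of those values came out whole within 0.15 reads. GC content and length were taken from GENCODE M21 by symbol (98.9% of genes tested). Alternatives were other pseudocounts, filters, scalings, weights, a GC and length correction, a replicate block, and leaving out each library. Genes past the threshold in any comparison are given in every library and the others by range; from each further list, up to 4 called genes with the smallest p in each comparison are named, apart from a few that are not reported here. The members and lists were chosen with earlier results of these data known.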

Additional observations from a re-analysis of the deposited data

Results flagged for a closer look

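In 2 of 78 groups of 4 libraries examined, 1 library stood apart from the other 3 by Dixon's criterion (the gap to the nearest library over the range of the group), where chance gives about 1 in 20. Hif1a in STAT3KO was lowest in replicate 2, at 19.58 RPKM against 25.81 to 27.03 RPKM in the other 3 (ratio 0.856). Hk1 in TLR9KO was lowest in replicate 3, at 46.12 RPKM against 63.4 to 65.4 RPKM (ratio 0.910). The Hif1a call in STAT3KO held without replicate 2.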

How the results depend on the processing

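In STAT3KO against WT, 13 of the 39 genes were called, and leaving out 1 library gave 7 to 16. Without WT replicate 1 it was 8, with 7 lower (17.9%, beside 11.1% of all genes tested) and 1 higher. Without WT replicate 3 it was 7, with 6 lower (15.4%, beside 12.3%) and 1 higher. Without STAT3KO replicate 3 or 4 it was 8, all lower (20.5%, beside 13.0% and 12.5%). With the melanocyte level as a covariate, an alternative added after the data were seen, 20 were called. Of these 18 were lower (46.2%, beside 17.8% of all genes tested) and 2 higher (5.13%, beside 31.5%). In TLR9KO against WT, 8 were called, and 4 with no filter on low values, 2 with the GC and length correction, 15 with array weights, and 5 with only the 2 groups compared. The shares of the 39 called as lower in these 4 fits were 10.3%, 2.56%, 33.3% and 12.8%. The shares of all genes were 5.57%, 6.86%, 16.4% and 7.99%. Leaving out 1 library in TLR9KO against WT gave 0 (WT replicate 1) to 11 (WT replicate 2), with 2 without WT replicate 3, 4 without TLR9KO replicate 2 or 4, and 5 without TLR9KO replicate 3. Called as lower were 0% without WT replicate 1 (beside 5.7% of all genes), 28.2% without WT replicate 2 (13.1%) and 2.56% without WT replicate 3 (7.58%). Without TLR9KO replicate 2, 3 or 4 it was 10.3% (8.33% to 8.61%). Between the knockouts 4 were called, all lower (10.3%, beside 9.46% of all genes). With array weights 7 were lower (17.9%, beside 14.3%) and 4 higher (10.3%, beside 21.8%). With only the 2 groups compared 5 were lower (12.8%, beside 9.45%) and 2 higher (5.13%, beside 13.1%). Without the 2 libraries lowest in melanocyte genes 10 were lower (25.6%, beside 11.2%) and 1 higher (2.56%, beside 14.6%). With the covariate 7 were lower (17.9%, beside 10.6%) and 1 higher (2.56%, beside 15.7%). Leaving out 1 library gave 4 to 9 calls. The 9 came without TLR9KO replicate 3, all lower (23.1%, beside 9.43%). The cause of these shifts was not tested.

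Over all genes, TLR9KO against WT gave 3229 calls, 1652 with the GC and length correction and 1985 to 3588 on leaving out 1 library. STAT3KO against TLR9KO gave 2409 calls, 3807 with array weights and 1577 to 2377 on leaving out 1 library. STAT3KO against WT gave 4648 calls, and fewer, 3667 to 4409, on leaving out 1 library. With median-ratio scaling the split of higher and lower calls was 2338 and 2206 in STAT3KO against WT (3083 and 1565 as reported), 1780 and 1504 in TLR9KO against WT (2107 and 1122), and 1007 and 1193 between the knockouts (1410 and 999). With the GC and length correction these splits were 2106 and 1923, 936 and 716, and 1045 and 1055. The median log2 difference of the 39 genes ranged on leaving out 1 library from -0.53 to -0.11, from -0.47 to -0.1 and from -0.14 to 0.1 in the same order. Of the calls named, 1 changed sign: Tceb1 in STAT3KO against WT, at -0.05 with the GC and length correction. The signs of genes named without a call were not followed.

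With the replicate number as a block, 13, 5 and 4 of the 39 genes and 4074, 2662 and 1879 of all genes were called in the same order of comparisons. The shares called as lower were 30.8%, 12.8% and 10.3% of the 39, beside 12.9%, 8.42% and 7.72% of all genes. In STAT3KO against WT, 12 of the 13 were lower and Ankrd37 higher (adjusted p = 0.0434). Of the calls named, the block ended those of Tpi1 in STAT3KO (0.0614), of Tpi1, Pkm2 and Pfkfb3 in TLR9KO (0.071, 0.0889 and 0.0931), of Pgd and Taldo1 in STAT3KO (0.0505 and 0.0556), of G6pdx and Pgls in TLR9KO (0.0768 and 0.108), and of Tceb1, Pgam2, Taldo1 and G6pdx between the knockouts (0.0514, 0.053, 0.0686 and 0.0895). Deviations of same-numbered libraries correlated at -0.291 to 0.492 over 10 pairs, 4 of them over 0.1. The latter were the pairs of replicate 1 (0.181, 0.339 and 0.492) and that of replicate 3 of the knockouts (0.446). Deviations within a group are tied to each other, so this check cannot decide whether the numbers pair the samples. The calls that the block ended are listed here and not beside each gene. The lowest value of the 39 genes stood for about 82 reads by the estimated depth.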
